A study of Homo sapiens with 6 samples.

Results

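The genes described here encode the channels and carriers that move adenine nucleotides and phosphate through the mitochondrial membranes. They are the outer membrane channels VDAC1, VDAC2 and VDAC3, the outer membrane protein TSPO, the ADP/ATP carriers SLC25A4, SLC25A5 and SLC25A6, and the phosphate carrier SLC25A3. They were taken by symbol, 8 of the 54261 symbols in the deposited count table, and the set was built around the fall of VDAC2 between the groups compared here. Their differences between the groups are therefore descriptions and carry no test. All 6 libraries came from the human line PC9/GR, labelled as lung cancer cells and named after the PC9 lung adenocarcinoma line. Of these, 3 control libraries (labelled si-NC) came from cells given a control small interfering RNA (siRNA), and 3 knockdown libraries (labelled si-MYLK-AS1) from cells given an siRNA against the long non-coding RNA MYLK-AS1. Both groups share the cell line and the exposure to an siRNA. The study asked about glutamine metabolism and resistance to EGFR inhibitors. The siRNA sequence, its dose and the time of harvest are not given in the sources used. The labels do not say whether the repeats are separate cultures, and p-values then measure only the spread between these libraries, which may be technical.

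VDAC proteins are beta-barrel channels through which ATP, ADP, phosphate and other small metabolites cross the outer mitochondrial membrane. The ADP/ATP carriers then exchange cytosolic ADP for matrix ATP across the inner membrane, and SLC25A3 brings in the phosphate that ATP synthase needs. VDAC1 is usually the most abundant channel of the family, VDAC2 is also known as a docking site for the cell death proteins BAK and BAX, and TSPO is a cholesterol- and ligand-binding protein that sits near VDAC in the outer membrane.

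Total counts ran from 7551303 to 11055408 reads per library. MYLK-AS1 was listed with 20, 16 and 19 reads in the control libraries and with 0, 5 and 4 reads in the knockdown libraries. Its log2 fold change was -2.43 (SE 0.60, adjusted p = 0.00326 with the edgeR quasi-likelihood test). The labelled cell type was checked against 9 epithelial and lung markers. Their summed level was 11846 to 13869 counts-per-million (CPM) in control and 7622 to 8227 CPM in knockdown libraries, nearly all from the keratins KRT7, KRT8 and KRT18. Mean CDH1 went from 96.7 CPM in control to 44.3 CPM in knockdown libraries, while mean KRT19 went from 84.0 to 109 CPM. EPCAM had 4 to 16 reads per library and NAPSA 8 to 25. The lung lineage factor NKX2-1 had 0 to 10 and the surfactant gene SFTPB had 0 in all 6. Of the leukocyte markers, PTPRC and CD3E were at 0 in all libraries, and the list's sum, 201 to 282 CPM in control and 281 to 323 CPM in knockdown libraries, came almost wholly from CD68 and CD14. The 6 fibroblast markers summed to 21.8 to 28.1 CPM and 28.4 to 36.3 CPM, mostly from COL1A1, with COL1A2 at 0, and the 4 endothelial markers stayed at or below 1.00 CPM in every library. The part of these marker shifts in the results below was not tested, and in bulk RNA a smaller share of cells expressing a gene and less RNA per cell cannot be told apart.

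VDAC2 has a near-identical copy, and both are shown here because their counts are read together below. The table row LOC729317 is the processed pseudogene VDAC2P5, a single exon of 881 bases on chromosome 2 (GRCh38, chr2:65205108-65205988, plus strand). VDAC2 itself spans chr10:75210154-75231448 on the plus strand. Over 849 aligned bases the copy and the VDAC2 transcript were 99.76% identical, with a longest identical run of 443 bases. The windows below lie in the coding sequence near its end and centre on AGCTTA, a word taken from earlier results of these same data. Capitals mark the word (with 1 more A in the first window) or the bases aligned to it.
VDAC2, chr10:75229644-75229685, plus strand, exon 10 of 11: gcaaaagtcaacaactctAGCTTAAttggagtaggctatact
VDAC2P5, chr2:65205841-65205882, plus strand: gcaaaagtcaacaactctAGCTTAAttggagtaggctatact
VDAC1, chr5:133973807-133973848, minus strand, exon 8: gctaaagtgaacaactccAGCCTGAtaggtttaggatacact
VDAC2, joined from exons 10 and 11 between chr10:75229690-75230927, plus strand: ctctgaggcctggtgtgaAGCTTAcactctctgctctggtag
VDAC2P5, chr2:65205887-65205928, plus strand: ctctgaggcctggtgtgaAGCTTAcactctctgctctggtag
VDAC1, joined from exons 8 and 9 between chr5:133972833-133973802, minus strand: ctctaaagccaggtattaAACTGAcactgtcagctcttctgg
In both windows VDAC2P5 matched VDAC2 at 42 of 42 bases, across the exon junction in the second. VDAC1 matched at 32 of 42 bases in the first window, 5 of 7 in the word, and at 30 of 42 in the second, 4 of 6 in the word. The sequences come from the GENCODE release 29 annotation of GRCh38, with exons numbered in the transcript of the longest coding sequence.

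The transcripts of the genes differed in whether they held the word. Searched on the transcript's own strand, the longest coding sequence of VDAC2 held AGCTTA at 2 places, 1 of them the longer AGCTTAA, and that of VDAC3 held AGCTTAA once. AGCTTAA contains AGCTTA, so the counts are nested. In 3' UTRs, the word was found once in SLC25A4 and once in SLC25A3, the latter within CAGCTTAA. These windows are 26 bases long.
SLC25A4, 3' UTR in exon 4, chr4:185150091-185150116, plus strand: ccgcaaggcgAGCTTAtcttccacac
SLC25A3, 3' UTR in exon 8, chr12:98604439-98604464, plus strand: gaagagtaacAGCTTAActaaacctc
VDAC1, SLC25A5, SLC25A6 and TSPO held it in neither region, and the 459-base 3' UTR of VDAC2 did not hold it. Over tested genes with such sequence, 18.3% of 11615 coding sequences held AGCTTA and 5.59% held AGCTTAA, while 27.4% of 11490 3' UTRs held AGCTTA and 3.12% held CAGCTTAA, with no allowance for length. Of the genes with the word, VDAC2 and VDAC3 had log2 fold changes of -2.37 and -0.23, and SLC25A4 and SLC25A3 of 0.34 and 0.01. A link between the word and these changes was not tested. A match of letters is a description and does not show a site at which anything acts.

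Of the 8 genes, all passed the filter on low counts. By the threshold used for all genes (adjusted p 0.05, edgeR), 2 were called higher in knockdown libraries (VDAC1 and SLC25A4), 2 lower (VDAC2 and SLC25A5) and 4 were not called. Of all 15391 tested genes, 42% were called, 21.3% higher and 20.7% lower. Control and knockdown values were separate for 5 of the 8 (VDAC1, VDAC2, VDAC3, SLC25A4 and SLC25A5), against 52.2% of all tested genes. As the set was chosen on this contrast, nothing is read from these counts. VDAC2 and its copy VDAC2P5 lay far below the others in the plot of each gene by library.

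**Figure D1:**
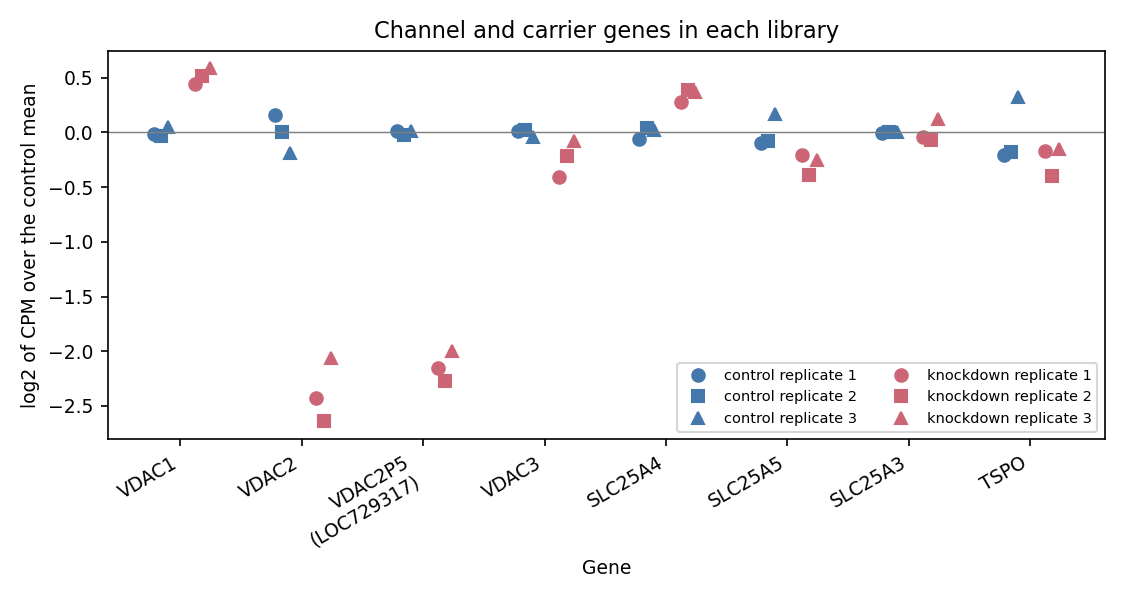
Each point is 1 library, given as the log2 of its CPM over the mean CPM of the 3 control libraries (vertical axis) for 7 of the 8 genes and for VDAC2P5 (horizontal axis). Blue is control, red is knockdown and the marker shape gives the replicate number. VDAC2 and VDAC2P5 are the only ones plotted whose knockdown libraries lie near or below -2, VDAC1 and SLC25A4 lie above 0, and SLC25A6 is left out because 3 libraries list it at 0.

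VDAC2 was strongly lower in every knockdown library. Its row held 1012, 1049 and 961 reads in the control libraries and 205, 154 and 176 reads in the knockdown libraries. After scaling to library size these are 113, 101 and 88.0 CPM against 18.7, 16.1 and 24.0 CPM. The lowest control library thus stood well above the highest knockdown library, and counting error was at most 8.06% in any library. The means were 101 ± 12.3 CPM and 19.6 ± 4.02 CPM (SD, n = 3 each), so the knockdown mean was 19.5% of the control mean. The log2 fold change of -2.37 (SE 0.14) was the 106th lowest of the 15391 tested genes. Leaving out any 1 library moved it between -2.52 and -2.24.

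More of the VDAC2-like reads were listed under the pseudogene than under the gene. VDAC2P5 held 1508, 1694 and 1833 reads in the control libraries and 410, 328 and 304 reads in the knockdown libraries. Its log2 fold change was -2.14 (SE 0.10), close to that of VDAC2. The 4 other rows named as VDAC2 pseudogenes had at most 5 reads in a library. Together the copies took 59.9% to 68.1% of all reads listed for VDAC2 and its copies, in every library of both groups. Reads from the long identical stretches cannot be told apart by sequence and how the authors' counting placed them is not stated. With the copies added to the gene, the control libraries had 2522, 2748 and 2794 reads and the knockdown libraries 615, 483 and 480. The summed level went from 267 ± 12.5 to 57.4 ± 7.53 CPM (SD, n = 3 each), 21.5% of control, with a log2 fold change of -2.22 (SE 0.11). The gene, the copy and their sum were thus lower by a like amount.

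VDAC1 was higher in every knockdown library. It measured 314, 309 and 327 CPM in the control libraries and 431, 452 and 475 CPM in the knockdown libraries, with no overlap. Its mean was 317 ± 9.27 CPM in control and 452 ± 22.1 CPM in knockdown libraries (SD, n = 3 each), and the log2 fold change was 0.51 (SE 0.09). The gene lies at chr5:133971915-134005133 on the minus strand, and 13 rows of the table are named as its pseudogenes, 9 of them with at least 10 reads in total. They took 18.1% to 22.4% of the reads listed for VDAC1 and its copies. VDAC1P1, 97.64% identical to the gene over 848 aligned bases, held 605, 656 and 560 reads in control and 783, 854 and 563 reads in knockdown libraries, with a log2 fold change of 0.39 (SE 0.12). VDAC1P2 had a log2 fold change of 0.40 (SE 0.14), and VDAC1P3, VDAC1P6 and VDAC1P7 had values of -0.06, -0.21 and 0.12 and were not called. VDAC1P4, VDAC1P5, VDAC1P8 and VDAC1P11, with 12 to 48 reads in total, were too low to be tested.

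VDAC3, the third channel, was lower by a small amount that did not pass the threshold. It measured 126, 126 and 121 CPM in the control libraries against 93.6, 107 and 118 CPM in the knockdown libraries. The groups did not overlap, but knockdown replicate 3 lay only just below the lowest control library. The log2 fold change was -0.23 (SE 0.10). The call depends on the settings: it was past the threshold with upper quartile factors (-0.26), without scaling factors (-0.26), with a filter of at least 5 CPM in 3 libraries (-0.26) and without knockdown replicate 3 (-0.30). Without knockdown replicate 1 it was -0.14. Its pseudogene VDAC3P1 took 2.25% to 4.01% of the reads of the pair.

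The 3 channel genes are far less alike in sequence than VDAC2 and its copy. Over their aligned coding sequences VDAC1 and VDAC2 were 71.4% identical with a longest identical run of 13 bases, VDAC2 and VDAC3 71.7% with 17 bases, and VDAC1 and VDAC3 67.3% with 11 bases. Their coding sequences hold 283, 309 and 284 codons for VDAC1, VDAC2 and VDAC3, VDAC2 being the longest.

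The makeup of the VDAC family shifted from VDAC2 to VDAC1. On the scale of CPM per kilobase of annotated exon, VDAC2 made up 22.2%, 20.6% and 18.0% of the summed VDAC level in the control libraries and 3.84%, 3.13% and 4.33% in the knockdown libraries. The share of VDAC1 went from 57.2% ± 2.31 to 77.9% ± 1.21 and that of VDAC3 from 22.6% ± 0.511 to 18.3% ± 0.950 (SD, n = 3 each). When reads of the copies were added to their parents, a step chosen after the data were seen, the share of VDAC2 was larger in both groups, 36.0% ± 0.943 in control and 8.74% ± 0.937 in knockdown libraries. The shares of VDAC1 were then 48.4% and 76.3%, and those of VDAC3 were 15.6% and 15.0%.

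Whether the family as a whole kept its level depends on the copies. Without them the summed level was 179, 174 and 173 CPM per kilobase in control and 173, 183 and 196 CPM per kilobase in knockdown libraries, which overlap, with means of 175 ± 3.40 and 184 ± 11.8 (SD, n = 3 each). With the copies added it was 268, 261 and 257 against 219, 233 and 245 CPM per kilobase. These groups do not overlap, and the knockdown mean was 0.886 of the control mean. The stacked bars by library show both versions.

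**Figure D2:**
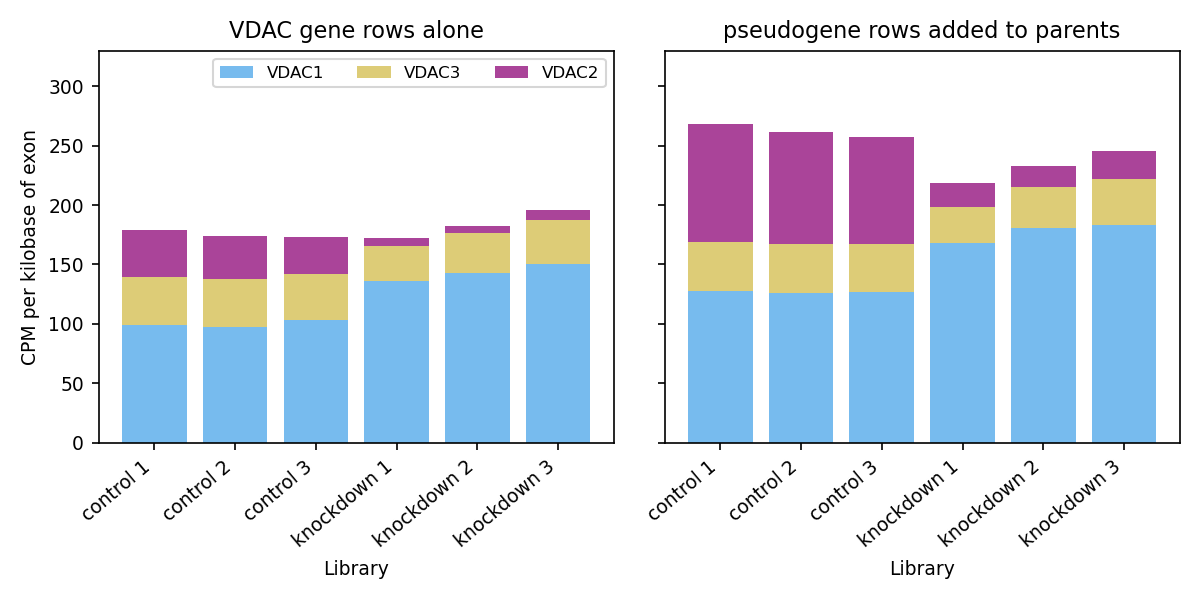
Stacked bars give the level of VDAC1, VDAC3 and VDAC2 in each library (horizontal axis) in CPM per kilobase of exon (vertical axis, from 0). On the left only the gene rows are used, and on the right the reads of pseudogene rows are added to their parents. The VDAC2 segment is narrow in all 3 knockdown libraries in both panels, while the total height overlaps between groups on the left and is lower in knockdown libraries on the right.

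TSPO did not separate the groups. It measured 48.3, 49.1 and 70.0 CPM in the control libraries and 49.6, 42.5 and 50.1 CPM in the knockdown libraries. Control replicate 3 stood above the other 5 libraries, which lay close together. The log2 fold change of -0.24 (SE 0.14) was not called, and it was -0.04 without control replicate 3.

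Of the ADP/ATP carriers, SLC25A5 stood far above SLC25A4. The level of SLC25A6 cannot be judged, because a 0 in its row may not mean absence. On the scale of CPM per kilobase of exon in the control libraries, SLC25A5 stood at 475 ± 49.8, VDAC1 at 100 ± 2.93, VDAC3 at 39.5 ± 0.974, TSPO at 38.4 ± 8.46 and VDAC2 at 35.6 ± 4.36 (SD, n = 3 each). The ranges of VDAC3, TSPO and VDAC2 overlapped on this scale, so their order is not resolved there. With reads of the copies added to their parents VDAC2 stood at 94.5 ± 4.44 and VDAC3 at 40.8 ± 0.797 CPM per kilobase of exon, with VDAC2 above VDAC3 in every control library. Per kilobase of coding sequence, without the copies, VDAC3 (141 to 148 CPM) lay above VDAC2 (94.6 to 121 CPM). The order of these channels thus changes with the copies and with the length used. SLC25A3 followed at 25.4 ± 0.115 and SLC25A4 was lowest at 4.37 ± 0.162 CPM per kilobase, while SLC25A6 ranged from 0 to 71.4. The place of SLC25A3 also depends on the length used: its annotated exons cover 8896 bases but its coding sequence 1089, and per kilobase of coding sequence it came after SLC25A5 and VDAC1 at 208 ± 0.939 CPM. In the knockdown libraries VDAC2 was at 6.94 ± 1.42 CPM per kilobase of exon, below SLC25A3 at 25.6 ± 1.90, and its range overlapped that of SLC25A4, at 5.54 ± 0.232. With the copies added VDAC2 was at 20.3 ± 2.66 CPM per kilobase in these libraries.

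SLC25A5, the main carrier of dividing cells, was somewhat lower in the knockdown libraries. It measured 665, 675 and 799 CPM in control and 619, 545 and 597 CPM in knockdown libraries. The groups did not overlap, with control replicate 3 above the other control libraries. Its log2 fold change was -0.28 (SE 0.10), called lower in the fit of all 6 libraries. It was no longer called without control replicate 3 (-0.19) or without knockdown replicate 2 (-0.23). The gene lies at chrX:119468400-119471319 on the plus strand, and 227 of its exon bases overlap the antisense gene SLC25A5-AS1, which had 13, 16 and 13 reads in control and 6, 8 and 4 in knockdown libraries. Without strand information such reads cannot be told apart, though they are few beside those of SLC25A5. Its pseudogene rows took 1.84% to 3.14% of the reads. Of the 7 with at least 10 reads, SLC25A5P2 was called lower, at -0.75 (SE 0.21). SLC25A5P1, SLC25A5P3, SLC25A5P5, SLC25A5P7 and SLC25A5P8 were not called, at -0.84, -0.54, -0.32, -0.88 and -0.76, and SLC25A5P6, with 24 reads in total, was too low to be tested.

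SLC25A4, the carrier typical of heart and muscle, was low but higher in the knockdown libraries. It measured 20.2, 21.7 and 21.5 CPM in control and 25.6, 27.7 and 27.3 CPM in knockdown libraries. The groups did not overlap, and the log2 fold change was 0.34 (SE 0.13). Its call as higher was lost in 10 of 16 alternative analyses, among them DESeq2 and the fits without any 1 control library, with values from 0.31 to 0.38 in all 16. The table has no pseudogene row for it.

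SLC25A6, the third of the ADP/ATP carriers with wide expression, was listed all or none. Its row held 0, 540 and 1689 reads in the control libraries and 427, 0 and 0 reads in the knockdown libraries. The groups overlap completely, each with at least 1 library at 0, so no fold change is given. The gene lies in the pseudoautosomal region, with the same annotated position, 1386152 to 1392724 on the minus strand, on chromosomes X and Y. Of the 18 protein-coding pseudoautosomal genes in the table, 14 were at 0 in all 6 libraries. Of the others, CD99 had 971 to 1619 reads in every library, VAMP7 had 29, 17 and 32 reads in control and 139, 0 and 45 in knockdown libraries, and ZBED1 had 1 to 29 reads. A value of 0 in this row can therefore not be read as absence of the transcript. Its pseudogene SLC25A6P2 had 15, 20 and 23 reads in control and 10, 6 and 12 in knockdown libraries, also where the gene was at 0, and was not called.

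**Figure D3:**
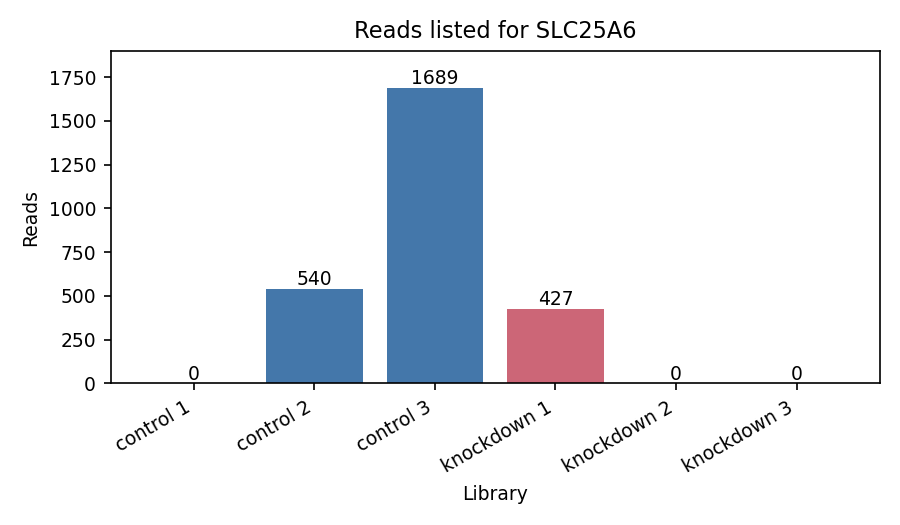
Bars give the reads listed for SLC25A6 (vertical axis, from 0) in each library (horizontal axis), blue for control and red for knockdown. Control replicate 1 and knockdown replicates 2 and 3 are listed at 0, while the other 3 libraries hold 427 to 1689 reads, so presence of reads does not follow the groups.

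The 3 ADP/ATP carrier coding sequences have the same length, 298 codons, and are 77.3% to 78.8% identical in pairs, with longest identical runs of 14 to 29 bases. On the scale of CPM per kilobase of exon, SLC25A5 made up 93.5% ± 5.78 of their summed level in control and 97.2% ± 2.23 in knockdown libraries (SD, n = 3 each). These shares take the SLC25A6 row as listed, so they do not give the true makeup of the family. Control replicates 2 and 3 and knockdown replicate 1, which hold the reads of SLC25A6, had the lowest shares. Without SLC25A6 in the sum, a step chosen after the data were seen, SLC25A5 made up 99.1% ± 0.0810 and 98.6% ± 0.144. The sum of SLC25A4 and SLC25A5 alone went from 480 ± 49.9 to 397 ± 25.4 CPM per kilobase.

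SLC25A3 had nearly the same level in both groups. It measured 225, 227 and 227 CPM in control and 220, 216 and 247 CPM in knockdown libraries, the latter on both sides of the control values. The log2 fold change was 0.01 (SE 0.09), and its sign changed with the settings, over a range of -0.05 to 0.05. The small nucleolar RNA SNORA53 overlaps 26 of its exon bases and had at most 5 reads in a library. The pseudogene rows took 1.20% to 2.65% of the reads. SLC25A3P2, the only 1 of them with at least 10 reads in total, had a log2 fold change of -0.54 (SE 0.28) and was not called.

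Other genes were lower in the knockdown libraries by an amount like that of VDAC2. Among 8870 tested genes that averaged 10 CPM or more, leaving out clone names, pseudogenes and the 8 genes themselves, likeness was measured as the root mean square difference of log2 CPM over the 6 libraries after centring each gene. The nearest was RCN2, a calcium-binding protein of the endoplasmic reticulum (ER), at 0.19, which went from 56.8, 58.5 and 59.3 CPM to 11.3, 12.6 and 15.3 CPM. The vesicle fusion ATPase NSF was also at 0.19, with a log2 fold change of -2.33. They were followed by the spindle midzone protein PRC1 (distance 0.22, log2 fold change -2.02), the co-chaperone FKBP5 (0.23, -2.55) and MXD3 (0.26, -2.40), which pairs with MAX. The step between the groups dominates this distance, so nearness mostly reflects a like fold change. Within the control libraries VDAC2 measured 113, 101 and 88.0 CPM, and the genes differed. PRC1 fell in the same order, and NSF and FKBP5 were lowest in the same library as VDAC2. MXD3 was highest there, and RCN2 rose slightly. For SLC25A6 no gene came close: the nearest, NPIPB9, MIR6797, CTSV, SNHG19 and LINC00173, were at distances of 3.56 to 3.74.

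The nearest protein-coding genes with at least 100 reads over the 6 libraries on either side were looked up for all 8 genes after the data were seen. Those beside the channel genes and SLC25A5 are given in full. Of all tested genes 42% were called, 21.3% higher and 20.7% lower, so nothing is read from calls among the neighbours. Of the remaining neighbours, CFAP97 beside SLC25A4 (0.41, SE 0.13) and IKBIP beside SLC25A3 (0.73, SE 0.16) were called higher on the log2 scale, and no other was called. COMTD1, 2.5 kb from VDAC2, stood at 0.33 on the log2 scale (SE 0.16, adjusted p = 0.119, edgeR), and KAT6B, 177.5 kb away on the other side, one of 0.48 (SE 0.33, adjusted p = 0.262, edgeR). Neither passed the threshold, and both values were above 0 where VDAC2 was lower. Beside VDAC1 both neighbours rose, C5orf15 at 3.1 kb by 0.54 (SE 0.11, adjusted p = 0.000593, edgeR) and TCF7 at 109.6 kb by 0.94 (SE 0.13, adjusted p = 1.92e-05, edgeR). The neighbours of VDAC3 went opposite ways: POLB fell by 0.67 (SE 0.21, adjusted p = 0.0178, edgeR) and SLC20A2 rose by 0.60 (SE 0.13, adjusted p = 0.00112, edgeR). Beside SLC25A5, the carrier gene SLC25A43 at 13.9 kb fell by 0.60 (SE 0.18, adjusted p = 0.012, edgeR), while CXorf56 at 66.8 kb had a value of 0.30 (SE 0.13, adjusted p = 0.0693, edgeR).

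Related genes were taken from 8 lists and are compared with all tested genes, of which 3274 rose and 3183 fell, with a median log2 fold change of -0.00050. For the lists, rose and fell mean called higher or lower at adjusted p 0.05 (edgeR). Of all tested genes 42% were called. In the order of the lists below, 54.5%, 60%, 28.6%, 50%, 50%, 36.4%, 28.6% and 44.4% of their tested genes were called. Changes below are log2 fold changes. All adjusted p-values below are from the edgeR fit over all genes, and each list is described by its counts and median without a test of the list.

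Of 11 tested carriers of other nucleotides and cofactors, 4 rose and 2 fell, with a median log2 fold change of 0.29. SLC25A24, which exchanges ATP-magnesium for phosphate, rose from 34.6 ± 1.55 to 74.5 ± 3.49 CPM (SD, n = 3 each), a change of 1.10 (SE 0.11, adjusted p = 4.54e-07). Its paralogue SLC25A23 went the other way, from 93.5 ± 1.93 to 57.3 ± 5.98 CPM, a change of -0.70 (SE 0.10, adjusted p = 3.96e-05). The folate and flavin carrier SLC25A32 rose by 1.26 (SE 0.13, adjusted p = 5.93e-07), and SLC25A16 rose by 0.85 (SE 0.21, adjusted p = 0.00338). Of 25 further SLC25 carriers tested, 6 rose and 9 fell, with a median of -0.20. SLC25A30 fell by 1.41 (SE 0.16, adjusted p = 3.08e-06), the iron carrier mitoferrin-1, SLC25A37, fell by 0.83 (SE 0.12, adjusted p = 2.26e-05) and SLC25A29, a carrier of basic amino acids, fell by 0.78 (SE 0.12, adjusted p = 6.15e-05). SLC25A13, an aspartate-glutamate carrier, rose by 0.82 (SE 0.13, adjusted p = 8.55e-05).

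Of 7 tested genes of the hexokinase HK2 and BCL2 family proteins, which bind VDAC or act beside it on the outer membrane, 1 rose and 1 fell, with a median of -0.15. HK2, outside the rule for named genes, was not called, at -0.15 (SE 0.19). The hexokinase HK1 was on the list but not among the tested genes. The survival gene BCL2L1 fell from 259 ± 15.1 to 164 ± 20.1 CPM (SD, n = 3 each), a change of -0.66 (SE 0.10, adjusted p = 4.11e-05). BOK, a BAX-like effector, rose by 0.63 (SE 0.13, adjusted p = 0.000605). BAX had a value of -0.28 (SE 0.12, adjusted p = 0.0739) and BID, which activates BAX and BAK, one of -0.20 (SE 0.12, adjusted p = 0.184). BAK1, whose protein VDAC2 is known to hold at the outer membrane, is outside the rule for named genes and was added for that role after its value was seen. It had a value of 0.09 (SE 0.12, adjusted p = 0.604).

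Of 14 tested genes of ER contact and calcium uptake, 6 rose and 1 fell, with a median of 0.18. MICU2, a regulator of the calcium uniporter, rose by 0.86 (SE 0.16, adjusted p = 0.000292). HSPA9, the chaperone that links VDAC1 to the inositol trisphosphate receptor, rose by 0.53 (SE 0.10, adjusted p = 0.000265), and the ER tether VAPB rose by 0.68 (SE 0.11, adjusted p = 0.000126).

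Among 6 tested TSPO partners and sterol transfer genes, 1 rose and 2 fell, with a median of 0.13. FDXR, the ferredoxin reductase that passes electrons to mitochondrial cytochromes P450, had 152 ± 16.2 CPM in control and 53.8 ± 1.17 CPM in knockdown libraries (SD, n = 3 each), a change of -1.50 (SE 0.10, adjusted p = 7.79e-09). Its partner FDX1 rose by 0.60 (SE 0.14, adjusted p = 0.00223). DBI, which encodes an endogenous TSPO ligand that also binds acyl-CoA, fell by 0.43 (SE 0.11, adjusted p = 0.00552). ACBD3, a TSPO-binding Golgi protein, had a value of 0.25 (SE 0.12, adjusted p = 0.112).

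Of 11 tested genes of the permeability transition and of phosphate transfer between nucleotides, 4 were called higher and 0 lower, with a median of 0.21. PPIF, cyclophilin D, which sensitises the permeability transition pore to calcium, rose from 63.8 ± 1.97 to 168 ± 7.25 CPM (SD, n = 3 each), a change of 1.39 (SE 0.09, adjusted p = 6.04e-09). The mitochondrial nucleoside diphosphate kinase NME4 rose by 0.33 (SE 0.10, adjusted p = 0.0142). AK4, a mitochondrial adenylate kinase, also rose, by 1.23 (SE 0.44, adjusted p = 0.0331), from a level of 0.677 ± 0.294 CPM.

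Of 21 tested genes of the machinery that inserts VDAC and the carriers into the membranes, 3 rose and 3 fell, with a median of 0.07. TOMM6, a small subunit of the outer membrane translocase, fell from 106 ± 7.13 to 56.3 ± 5.96 CPM (SD, n = 3 each), a change of -0.91 (SE 0.11, adjusted p = 3.39e-06). MTX2, of the outer membrane sorting machinery, fell by 0.51 (SE 0.15, adjusted p = 0.0105). TIMM10B, a small chaperone of the carrier import route, rose by 1.10 (SE 0.13, adjusted p = 5.29e-06) and AGK, an acylglycerol kinase of the carrier translocase, by 0.40 (SE 0.12, adjusted p = 0.0141).

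ATP synthase, which uses the ADP and phosphate that the carriers deliver, had 6 of 18 tested genes lower and 2 higher. The median over the 18 was -0.15. These are subunit genes and the inhibitor gene ATPIF1, which was not called. The table lists them under older symbols. ATP5G1, among the genes that encode the membrane ring subunit, fell from 182 ± 13.0 to 101 ± 5.66 CPM (SD, n = 3 each), a change of -0.85 (SE 0.09, adjusted p = 1.66e-06). The other genes of this subunit, outside the rule for named genes, changed less. ATP5G2 fell by 0.36 (SE 0.09, adjusted p = 0.00348), and ATP5G3, at -0.15 (SE 0.09), was not called. The catalytic-head gene ATP5A1 fell by 0.53 (SE 0.09, adjusted p = 0.000108) and C14orf2 by 0.47 (SE 0.10, adjusted p = 0.000973). ATP5H, of the stalk, rose by 0.49 (SE 0.10, adjusted p = 0.00101).

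**Figure D4:**
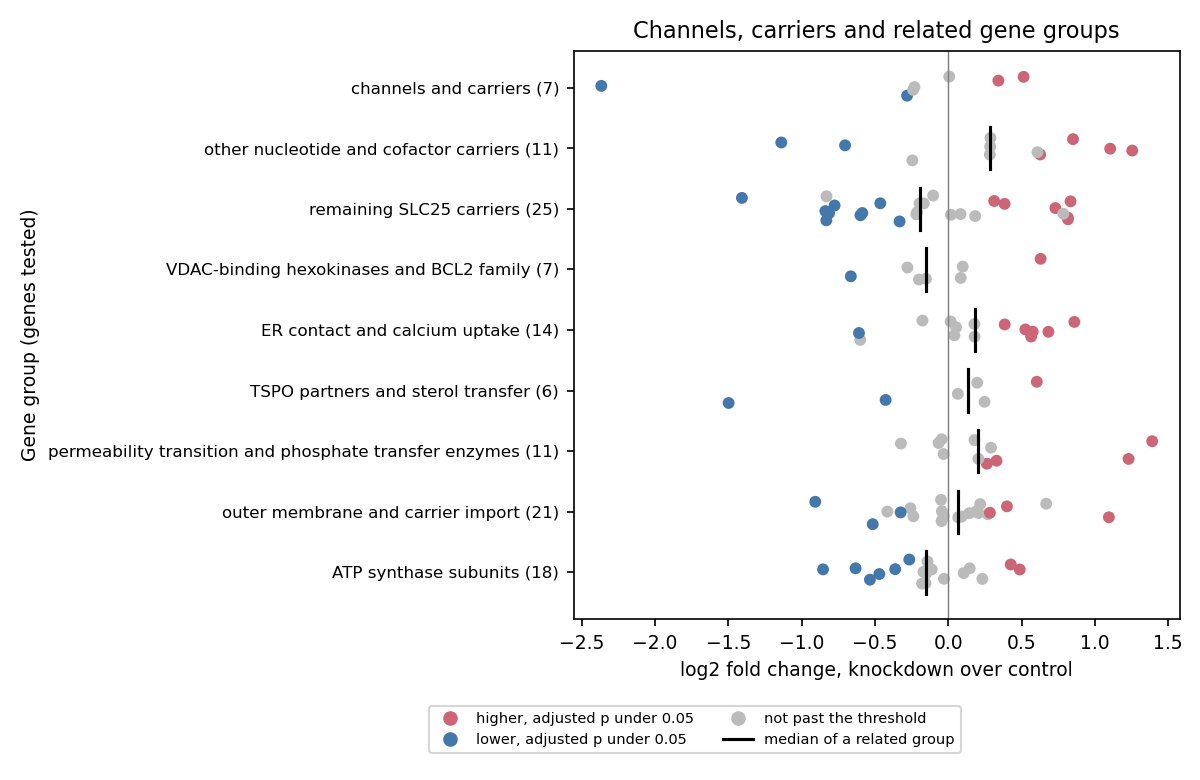
Each point is 1 tested gene, placed by its log2 fold change in knockdown over control libraries (horizontal axis) within its gene group (vertical axis, with the number of genes drawn); vertical jitter is only for legibility. VDAC2, around whose fall the 8 genes were chosen, lies at -2.37, left of every gene of the 8 related groups. The medians of these groups, drawn as bars, run from -0.20 to 0.29. SLC25A6 is not drawn.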

How the data were processed

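RNA of 6 PC9/GR libraries was sequenced after an Ion Proton RNA-Seq Kit preparation, per the labels. The authors deposited raw counts per gene symbol. The submitters' processing notes name the build GRCh38, while aligner, counter, annotation and strandedness are not stated in any source used here. Counts were tested with edgeR 4.0.16 in R 4.3.3 (filterByExpr, TMM, robust quasi-likelihood F test, Benjamini-Hochberg adjustment over 15391 genes, threshold 0.05). SE is the log2 fold change divided by the root of F. The 8 genes and all lists were chosen with earlier results of these data known. Of 163 list symbols all matched, 20 through older symbols. Named were the 8 genes, MYLK-AS1, up to 4 tested genes of lowest p per list, pseudogenes with at least 10 reads and the 5 nearest genes in pattern. Some genes that this rule names are not reported here. Exon and coding lengths and sequences came from GENCODE release 29, aligned with Biopython 1.88. The test was run on simulated counts with few changed genes and a single dispersion for all genes. These settings differ from the data, so the run checks only the code. Alternatives used DESeq2 1.42.0, limma 3.58.1, other scalings, filters and left-out libraries. Replicates differed beyond sampling noise, with chi-square per degree of freedom from 2.38 to 9.98 for pairs within a group. Control replicate 3 gave 9.83 and 9.29 with control replicates 1 and 2, which gave 2.38 together. Knockdown pairs gave 4.90 to 9.98.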

Additional observations from a re-analysis of the deposited data

How the results depend on the processing

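VDAC2 stayed lower and called in all 16 alternatives (-2.52 to -2.22), and VDAC1 higher and called in all 16 (0.48 to 0.55). The number of the 8 genes called higher was 2 and became 1 with upper quartile factors, no factors, no filter on low counts, a filter of at least 5 CPM in 3 libraries, DESeq2 and an adjusted p of 0.01, and 1 to 2 with 1 library left out. The number called lower was 2, became 3, with VDAC3, under upper quartile factors, no factors and the 5 CPM filter, became 1 at an adjusted p of 0.01, and ran from 1 to 3 with 1 library left out. Without 1 library, 2646 to 3176 of all genes rose and 2527 to 2971 fell. The SLC25A3 value changed sign with upper quartile factors (-0.020), no factors (-0.023), the 5 CPM filter (-0.027), pseudogene reads added (-0.0020, also -0.0021 with VDAC2P5), and without control replicate 1 (-0.00082) or knockdown replicate 3 (-0.048), with a range of -0.048 to 0.047 when 1 library was left out. It was not called in any of the 16. The difference in the VDAC2 share was -16.5 percentage points, -17.6 to -15.5 with 1 library left out, -14.3 with pseudogene reads added and, in steps chosen after the data were seen, -27.3 with VDAC2P5 added as well and -14.2 per coding length. That of the SLC25A5 share was 3.69, 0.687 to 6.46 with 1 library left out, and -0.487 without SLC25A6, chosen after the data were seen. Deviations of libraries with the same repeat number correlated at -0.0524, 0.083 and 0.0687, against -0.1255 to 0.0725 for different numbers. With so few libraries per group, these values cannot settle whether the number pairs them. With the repeat number as a replicate block, 3321 genes rose and 3200 fell, and of the 8 genes 2 were higher and 2 lower. SLC25A6, at 0 in 3 libraries, gives no fold change, and MYLK-AS1 rests on at most 20 reads per library.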
